A study of Homo sapiens with 12 samples.

Results

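Levels of 38 genes for nuclear RNA-binding proteins were examined in A549 cells, a human lung adenocarcinoma line, after gain of TIF1γ or loss of TAF15. The genes are 18 heterogeneous nuclear ribonucleoproteins (hnRNPs), 10 serine/arginine-rich (SR) splicing factors, 5 paraspeckle proteins, and a remaining set of 5 with the U2AF subunits, ILF2, TARDBP and ELAVL1. They were taken as a list of names, and all 38 of them had a row among the 57879 Ensembl identifiers measured. The vector cells (genotype given as WT) carried the empty counterpart of the TIF1γ construct, and the TIF1γ cells a lentiviral construct for stable expression of TIF1γ. The sh-NC cells (also WT) carried the control construct for short hairpin RNA, and the sh-TAF15 cells a hairpin construct against TAF15. All 4 groups were thus stably infected with a lentivirus, and no group was uninfected. The promoter of each construct, the hairpin sequence and whether a line was 1 clone or a pool are not given in the sources used here.

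Files were read for 3 libraries of vector cells, 2 of TIF1γ cells, 1 of sh-NC cells and 2 of sh-TAF15 cells. The other 4 of the 12 labelled samples are not analysed here. The design text calls the replicates biological. Whether they came from separate infections is not given, so the p-values measure the spread between these samples. Every sh-TAF15 comparison rests on the single sh-NC library, which carries no SD and was assumed in the fit to vary like the other groups.

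hnRNPs coat nascent transcripts in the nucleus and take part in splicing, export and stability of mRNA, in part by holding splice sites back from use. SR proteins bind exons through RNA recognition motifs and recruit the splicing machinery through their serine/arginine-rich domains, often in the opposite sense to hnRNPs. SFPQ, NONO and PSPC1 form dimers that coat the long noncoding RNA NEAT1 in nuclear bodies called paraspeckles. TAF15 is an RNA-binding protein related to EWSR1. Many genes of both families hold down their own mRNA level by splicing in exons that lead to decay of the transcript.

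Levels are given in FPKM, fragments divided by the transcript's length and the library's number of mapped fragments, so they can be set side by side between genes. Fold changes are differences of log2(FPKM + 1) after scaling of libraries, and a gene was called at an adjusted p under 0.05 in limma over all 13907 genes tested. Relative depth, read from the spacing of the lowest values, ran from 0.788 to 1.03 of that of vector replicate 1, and absolute depth is unknown. In TIF1γ cells TRIM33, which encodes TIF1γ, stood at 8.03 and 6.14 FPKM. It stood at 2.23, 2.10 and 1.27 FPKM in vector cells, a log2 fold change of 1.46 (SE 0.27, limma adjusted p = 0.13). TAF15 stood at 26.3 and 17.4 FPKM in sh-TAF15 cells and at 107 FPKM in sh-NC cells, a log2 fold change of -2.33 (SE 0.41, limma adjusted p = 0.067). Neither targeted gene passed the threshold, though in both cases the groups did not overlap in the direction of the label. In the vector libraries TAF15 stood at 47.1, 35.0 and 68.1 FPKM and in the TIF1γ libraries at 41.4 and 43.5 FPKM, all below the sh-NC library.

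Markers of lung epithelium summed to between 11690 and 13500 FPKM in vector, 2431 and 3820 in TIF1γ, 4233 in sh-NC and 4920 to 6326 in sh-TAF15 libraries. In that list 7 of 9 genes reached 1 FPKM in any library, and KRT8 and KRT18 were listed at 0 in both TIF1γ libraries beside 1129.5 FPKM or more in each of the other libraries. Both were among the genes set aside for a 0 beside 100 FPKM or more, so the TIF1γ sums rest on the other markers. KRT7 was higher in TIF1γ (3746.5 and 2356.3 FPKM) than in vector libraries (1763.5 to 1992.4), as was KRT19 (61.5 and 61.7 against 26.9 to 41.6). EPCAM and CDH1 overlapped between these groups. In the sh libraries KRT19 stood at 0.243 FPKM in sh-NC and at 0.775 and 0.603 in sh-TAF15, below every vector and TIF1γ library. KRT7 stood at 1704.3 FPKM in sh-NC and at 1516.1 and 1922.3 in sh-TAF15. The sh values of KRT7, EPCAM and CDH1 overlapped with those of the vector and TIF1γ libraries. Fibroblast markers (2 of 7 at 1 FPKM in any library) summed to at most 1.65 FPKM in vector and 0.604 in TIF1γ libraries, and to 4.31 in sh-NC and 5.98 to 6.05 in sh-TAF15 libraries, with DCN at 0 throughout. Leukocyte markers (CD14 and CD68 alone reached 1 FPKM, and CD3E was at 0) summed to 26.8 to 87.2 FPKM. Neuroendocrine and neuronal markers (4 of 6 at 1 FPKM) summed to between 18.6 and 85.2 FPKM, lowest in the sh libraries. No endothelial marker reached 1 FPKM. The part of these shifts in the results was not tested, and in bulk RNA fewer cells of a type and less RNA per cell cannot be told apart.

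The 38 genes were among the abundant mRNAs of these cells. Their mean level over the 8 libraries had a median of 115 FPKM, against 7.96 FPKM for all genes tested, and 92.2% of genes tested had a lower mean than the median member. Of the 38 genes 24 had a mean of at least 100 FPKM, as had 8.93% of genes tested. Together they held between 0.379% of summed FPKM in TIF1γ replicate 2 and 0.835% in sh-NC. The sum over all genes differed too, at 1356634 FPKM in TIF1γ replicate 2 and 915687 in sh-NC. The 38 genes alone summed to 5297, 5296 and 4189 FPKM in vector, 5144 and 4064 in TIF1γ, and 7644 in sh-NC libraries. All 38 passed the filter on low values, and 37 of them reached 1 FPKM in every library. SRSF10 was the exception. The order of the genes by level was similar in all libraries, with a Spearman rho across the 38 genes of 0.88 to 0.989 over the 28 pairs of libraries, which share gene lengths and the line.

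**Figure D1:**
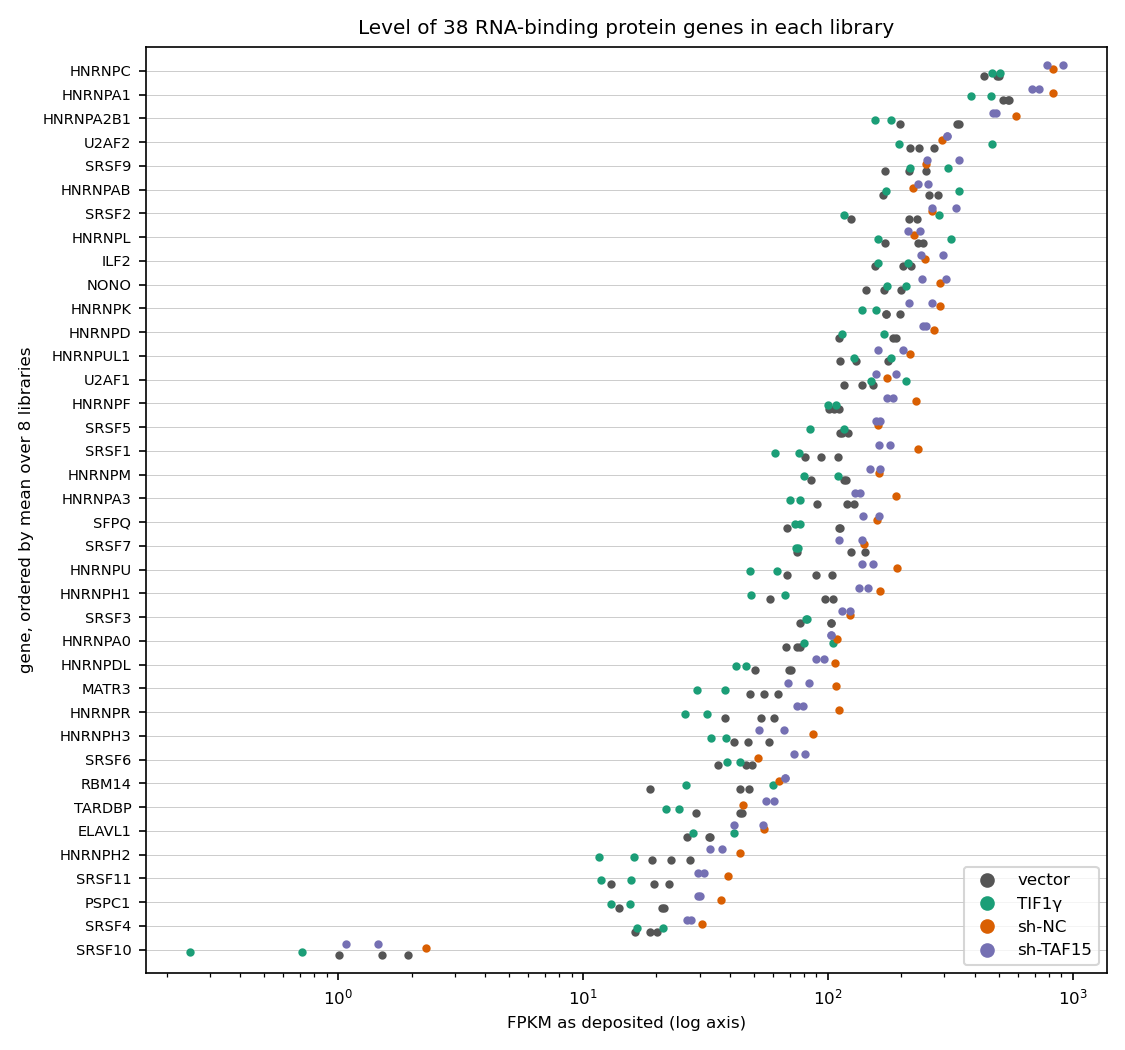
FPKM as deposited (log axis) of each of the 38 genes in 8 libraries, ordered by the mean over libraries; each point is 1 library, coloured by group. HNRNPC, HNRNPA1 and HNRNPA2B1 lie at the top and SRSF10 alone lies near 1 FPKM, and for 27 of the 38 genes all 3 sh libraries (orange and violet) lie to the right of the other 5.

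Among the hnRNPs of the A/B and D types, which shuttle between nucleus and cytoplasm, HNRNPA1 (ENSG00000135486) was the most abundant. HNRNPA1, a repressor of exon inclusion, stood at 545, 550.4 and 520.2 FPKM in vector, 385 and 466 in TIF1γ, 832 in sh-NC, and 731 and 681 in sh-TAF15 libraries. Its level is uncertain, as 75 of its named pseudogenes have rows of their own. Together these held 6.22% of the FPKM of gene and pseudogenes summed. How reads shared with them were counted is not given in the sources used here, so the size of the error is unknown. HNRNPA2B1 (ENSG00000122566), which binds mRNA and microRNA precursors, stood at 343, 337 and 198 FPKM in vector and 182 and 155 in TIF1γ libraries. It stood at 587 FPKM in sh-NC and at 487 and 472 in sh-TAF15 libraries. Both TIF1γ libraries thus lay below all vector libraries, and vector replicate 3 lay nearer to the TIF1γ libraries than to its own group. HNRNPA3 stood at 119.6, 128 and 90.5 FPKM in vector, 76.9 and 70.03 in TIF1γ, 191 in sh-NC, and 136 and 129.9 in sh-TAF15 libraries. HNRNPA0, HNRNPAB, HNRNPD and HNRNPDL had means over all libraries of 90.04, 243, 193 and 71.7 FPKM.

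Of the other hnRNPs, HNRNPC (ENSG00000092199) had the highest mean of all 38 genes at 617 FPKM. HNRNPC, which binds uridine tracts and keeps cryptic exons out, stood at 499, 493 and 435 FPKM in vector, 504 and 469.99 in TIF1γ, 829 in sh-NC, and 786 and 917 in sh-TAF15 libraries. The vector and TIF1γ libraries overlapped, and all 3 sh libraries lay above both. HNRNPR stood at 53.4, 60.7 and 38.2 FPKM in vector, 26.2 and 32.05 in TIF1γ, 112 in sh-NC, and 79.4 and 75.0 in sh-TAF15 libraries. HNRNPU, a scaffold protein of the nuclear matrix, stood at 104, 89.8 and 68.01 FPKM in vector, 48.2 and 61.9 in TIF1γ, 191 in sh-NC, and 154 and 138 in sh-TAF15 libraries. For both genes the order of groups was TIF1γ, vector, sh-TAF15, sh-NC, with no overlap between any pair of groups. In GENCODE 29 exons of HNRNPU share 3502 bases with COX20 on the opposite strand, and whether the counting used strand is not given in the sources used here. HNRNPF, which binds guanine tracts, stood at 111, 101 and 106 FPKM in vector and at 108 and 100.5 in TIF1γ libraries, which overlapped, against 229 in sh-NC and 186 and 175 in sh-TAF15 libraries. HNRNPH3 stood at 57.4, 47.5 and 41.5 FPKM in vector, 33.5 and 38.4 in TIF1γ, 87.4 in sh-NC, and 66.1 and 52.5 in sh-TAF15 libraries. HNRNPH1, HNRNPH2, HNRNPK, HNRNPL, HNRNPM and HNRNPUL1 had means between 26.4 FPKM (HNRNPH2) and 226 FPKM (HNRNPL).

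The SR genes had means from 1.28 FPKM (SRSF10) to 252 FPKM (SRSF9). SRSF1 (ENSG00000136450), the prototype of the family, stood at 110.3, 94.3 and 80.5 FPKM in vector, 61.1 and 76.8 in TIF1γ, 235 in sh-NC, and 180.0 and 163 in sh-TAF15 libraries. The vector mean was 95.02 ± 14.9 FPKM (SD, n = 3), and every sh library lay above every vector and TIF1γ library. SRSF6 stood at 46.4, 49.01 and 35.8 FPKM in vector, 38.7 and 43.8 in TIF1γ, 51.9 in sh-NC, and 72.9 and 81.2 in sh-TAF15 libraries. It was 1 of 6 genes of the 38 with both sh-TAF15 libraries above sh-NC in deposited FPKM. SRSF4, with the second lowest mean of the 38 genes, stood at 20.2, 18.8 and 16.4 FPKM in vector, 21.3 and 16.7 in TIF1γ, 30.6 in sh-NC, and 26.6 and 27.8 in sh-TAF15 libraries. SRSF10 stood at 1.94, 1.01 and 1.52 FPKM in vector, 0.248 and 0.712 in TIF1γ, 2.29 in sh-NC, and 1.46 and 1.08 in sh-TAF15 libraries. The low level of SRSF10 belongs to the row of this identifier (ENSG00000188529), and a second identifier held to be SRSF10 (ENSG00000215699) ran from 0.291 to 3.27 FPKM. SRSF2, SRSF3, SRSF5, SRSF7, SRSF9 and SRSF11 had means of 22.9 FPKM (SRSF11) or more.

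Among the paraspeckle genes, SFPQ stood at 112, 111 and 68.3 FPKM in vector, 77.1 and 73.8 in TIF1γ, 159 in sh-NC, and 139 and 162 in sh-TAF15 libraries. NONO, the partner of SFPQ in paraspeckle dimers, stood at 171, 144 and 199 FPKM in vector, 208 and 174 in TIF1γ, 287 in sh-NC, and 305 and 243 in sh-TAF15 libraries. PSPC1, the third paralogue, stood at 21.5, 21.2 and 14.04 FPKM in vector, 13.0 and 15.6 in TIF1γ, 36.6 in sh-NC, and 29.6 and 30.05 in sh-TAF15 libraries. For these 3 genes every sh library lay above every vector and TIF1γ library, while the vector and TIF1γ groups overlapped. MATR3, a protein of the nuclear matrix, stood at 62.5, 54.9 and 48.1 FPKM in vector, 29.2 and 38.3 in TIF1γ, 109 in sh-NC, and 84.1 and 69.02 in sh-TAF15 libraries. RBM14, needed for paraspeckle assembly, stood at 44.1, 47.7 and 18.8 FPKM in vector, 60.1 and 26.5 in TIF1γ, 63.3 in sh-NC, and 66.9 and 67.3 in sh-TAF15 libraries. The 4 groups did not overlap for MATR3, whereas the RBM14 values of the vector and TIF1γ libraries overlapped, TIF1γ replicate 2 lying above all 3 vector libraries and TIF1γ replicate 3 among them.

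TARDBP, which encodes TDP-43, a repressor of cryptic exons, stood at 44.6, 44.04 and 28.96 FPKM in vector, 21.9 and 24.6 in TIF1γ, 45.3 in sh-NC, and 60.2 and 56.0 in sh-TAF15 libraries. It was lowest in the TIF1γ and highest in the sh-TAF15 libraries, with sh-NC near the upper vector libraries. U2AF1 and U2AF2, the subunits that recognise the end of the intron, had means of 161 and 287 FPKM. ILF2, part of a complex that binds double-stranded RNA, had a mean of 217 FPKM, and ELAVL1, the stabilising protein HuR, a mean of 39.1 FPKM. EWSR1, which is not among the 38 genes, stood at 92.4, 93.4 and 69.6 FPKM in vector, 111 and 61.1 in TIF1γ, 100.2 in sh-NC, and 91.0 and 89.5 in sh-TAF15 libraries.

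**Figure D2:**
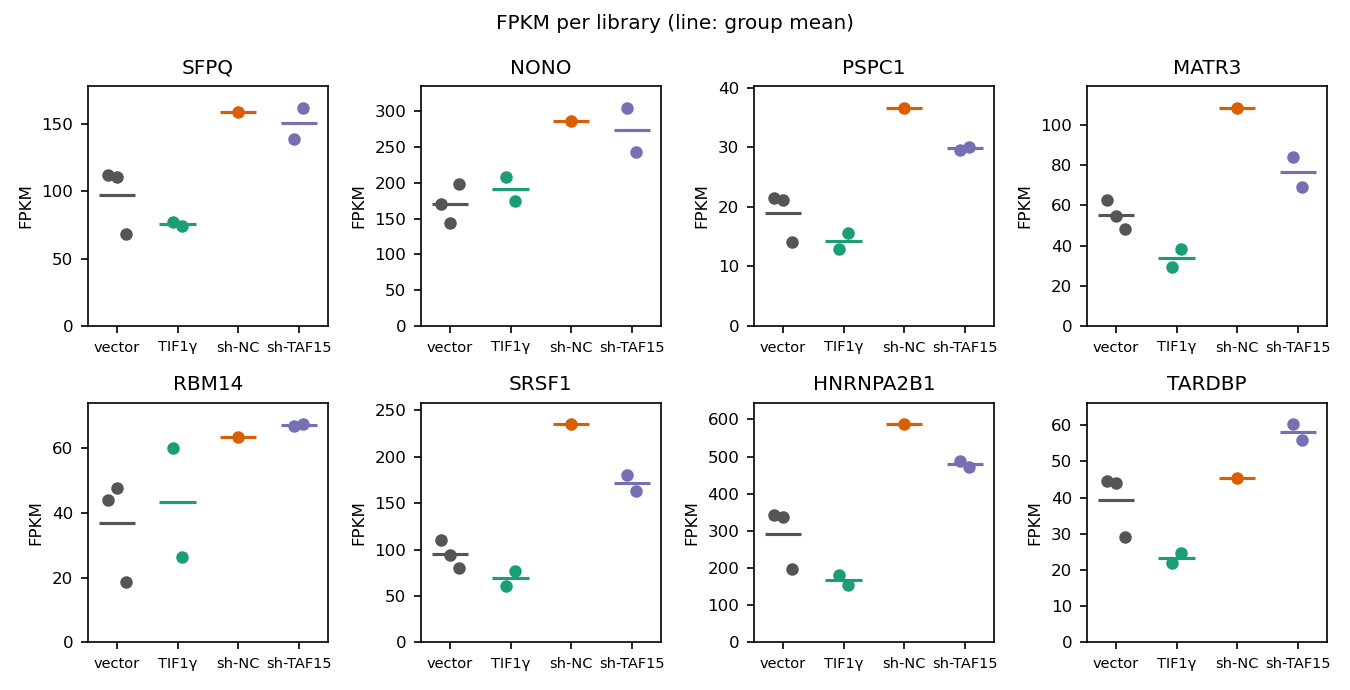
FPKM as deposited of 5 paraspeckle genes, SRSF1, HNRNPA2B1 and TARDBP; points are libraries and lines are group means (sh-NC has 1 library). The sh-NC and sh-TAF15 points lie above the vector and TIF1γ points for all 8 genes, and the 2 RBM14 points of TIF1γ lie at 60.1 and 26.5 FPKM.

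Spread over the 8 libraries ran from a coefficient of variation of 18.2% for U2AF1 to 51.5% for SRSF10. Next to SRSF10 stood SRSF1 at 48.8%, HNRNPR at 47.9%, HNRNPU at 46.9% and HNRNPA2B1 at 46.3%. SRSF3 and HNRNPA0 varied least after U2AF1, at 18.6% each. After scaling, the median deviation of the 38 genes from their own mean over libraries was 0.08, 0.03 and -0.28 in vector replicates 1, 2 and 3, on the log2 scale. It was -0.49 and -0.33 in the TIF1γ libraries, 0.43 in sh-NC, and 0.28 and 0.23 in the sh-TAF15 libraries. The pooled SD within groups of this median was 0.15. Vector replicate 3 thus lay nearer to the TIF1γ libraries than to vector replicates 1 and 2.

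**Figure D3:**
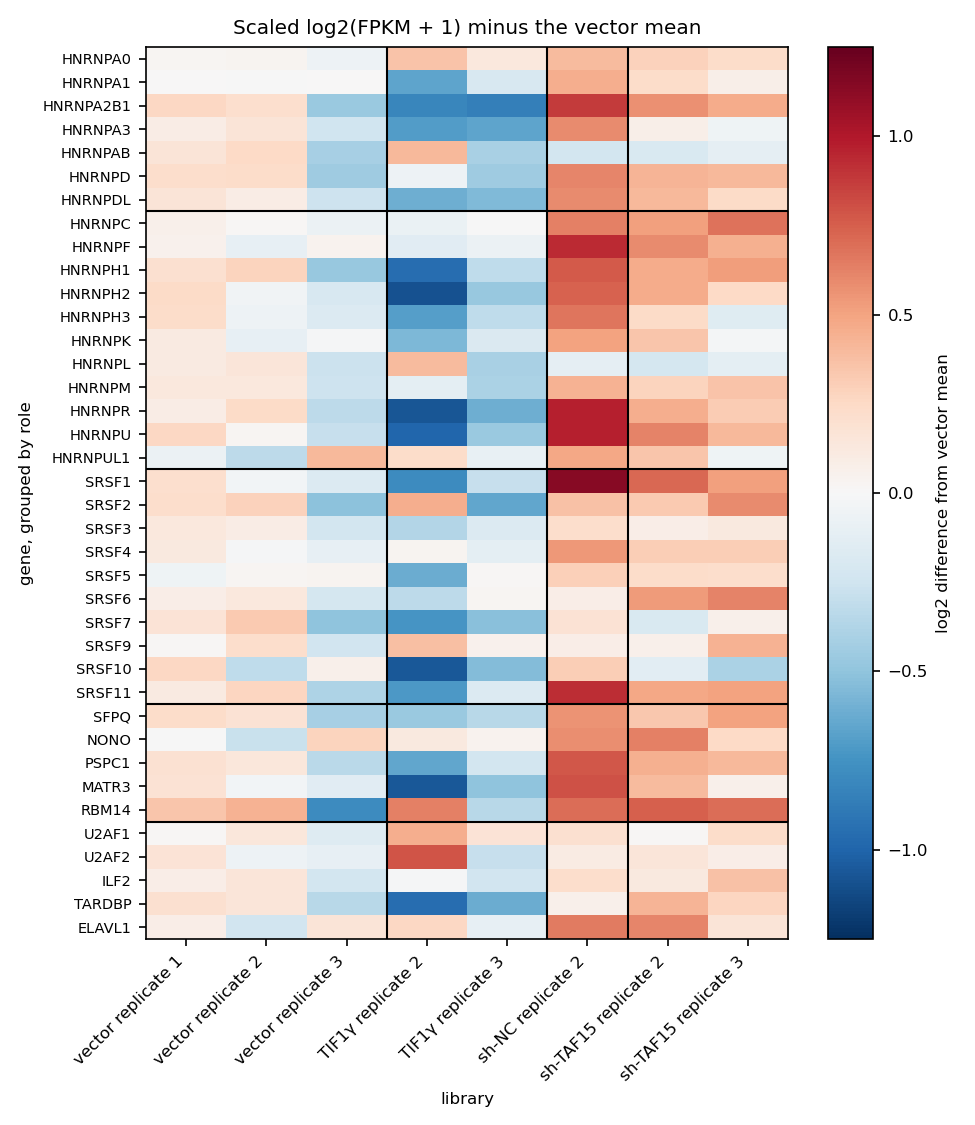
Difference of scaled log2(FPKM + 1) from the vector mean for the 38 genes (rows, in blocks of A/B and D hnRNPs, other hnRNPs, SR, paraspeckle and remaining genes) in each of 8 libraries (columns, in blocks by group). Most rows are blue in the TIF1γ columns and red in the 3 sh columns, while HNRNPAB, HNRNPL, U2AF1 and U2AF2 are not.

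The first comparison asks which of these genes changed with TIF1γ overexpression. None of the 38 genes passed the threshold in limma, in a comparison in which 0.0144% of all genes tested were called higher and 0.00719% lower. At an unadjusted p under 0.05, 12 members were lower and 0 higher, against 11.4% of all genes lower and 8.53% higher. With the trend on transcript GC and length removed, 2 were lower (HNRNPH2, HNRNPM) and 3 higher (HNRNPA0, HNRNPC, U2AF1). Of these HNRNPH2 alone was among the 12. The count was 1 lower with the replicate number as a block, 2 lower without TIF1γ replicate 2 and 5 lower without vector replicate 1. Without vector replicate 3, 16 members were lower and none passed the threshold. The limma calls over all 13753 genes then tested were 102 higher and 195 lower in place of 2 and 1. For these alternative fits the share of all genes at that unadjusted p is not given here. The log2 fold change was below 0 for 30 of 38 members, against 48.7% of all genes, with a median of -0.29 against 0.02 for all genes. In deposited FPKM both TIF1γ libraries lay below all 3 vector libraries for 13 members, and above them for HNRNPA0 alone, against 16.8% and 20.8% of genes tested.

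By role, 6 of 7 hnRNPs of the A/B and D types lay below 0 (median -0.43), as did 10 of 11 other hnRNPs (median -0.37) and 9 of 10 SR genes (median -0.29). Of the paraspeckle genes 3 of 5 lay below 0, and of the remaining 5 genes 2 did. The lowest p belonged to HNRNPR, with a log2 fold change of -0.84 (SE 0.25, limma adjusted p = 0.20). TARDBP followed at -0.78 (SE 0.25, limma adjusted p = 0.20) and HNRNPA2B1 at -0.84 (SE 0.27, limma adjusted p = 0.20). These 3 genes had -0.28, -0.28 and -0.31 once the trend on GC and length was taken out, and the lowest p belonged to HNRNPA0 at 0.72 (SE 0.21, limma adjusted p = 0.59). With that trend out, 25 of the 38 members lay below 0 and 13 above it. SRSF2 (0.11), SRSF3 (0.25), SRSF6 (0.36), SRSF9 (0.03) and SRSF11 (0.09) were then above 0, as was HNRNPC (0.48), so the counts by role depend on the trend. Before its removal the highest values were 0.31 for U2AF1, 0.25 for U2AF2 and 0.24 for HNRNPA0. U2AF2 had 467 and 196 FPKM with TIF1γ, either side of its vector values of 272, 236 and 216 FPKM. SRSF2 (284 and 116 FPKM), HNRNPAB (345 and 173 FPKM) and HNRNPL (318 and 161 FPKM) likewise stood far apart in TIF1γ replicates 2 and 3, so their group means describe neither library.

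The second comparison asks which genes changed with the TAF15 hairpin. None of the 38 genes passed the threshold in limma, where 0.0503% of all genes were called higher and 0.00719% lower. As fitted here, none reached an unadjusted p under 0.05 either, against 3.57% of all genes higher and 2.06% lower. The log2 fold change was below 0 for 30 of 38 members, against 50.9% of all genes, with a median of -0.24 against -0.0031 for all genes. Both sh-TAF15 libraries lay below sh-NC in deposited FPKM for 23 members and above it for 6, against 33.7% and 39.3% of genes tested. The 6 were HNRNPAB, SRSF6, SRSF9, RBM14, U2AF2 and TARDBP. With the trend on transcript GC and length removed, 2 members did reach an unadjusted p under 0.05 in limma, SRSF6 (0.76) and TARDBP (0.58), both higher. Scaled to the sum of FPKM, 1 member reached it and was lower. No member passed the threshold in either fit, and the share of all genes at that unadjusted p is not given here for them.

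All 11 hnRNPs outside the A/B and D types lay below 0, with a median of -0.34. In the other roles 6 of 7 A/B and D hnRNPs, 7 of 10 SR genes, 4 of 5 paraspeckle genes and 2 of the remaining 5 genes lay below 0. The lowest p belonged to HNRNPH3 at -0.62 (SE 0.33, limma adjusted p = 0.90), HNRNPA3 at -0.58 (SE 0.31, limma adjusted p = 0.90) and HNRNPR at -0.59 (SE 0.34, limma adjusted p = 0.92). SRSF6 had the highest value at 0.50 (SE 0.31, limma adjusted p = 0.94) and TARDBP the next at 0.29 (SE 0.33, limma adjusted p = 0.96). SFPQ, NONO and PSPC1 had log2 fold changes of -0.15, -0.14 and -0.35, and RBM14 of 0.02. EWSR1 had -0.21 (limma adjusted p = 0.96).

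The difference between the TIF1γ and sh-TAF15 effects was tested in the same fit. None of the 38 genes passed the limma threshold, where 0.0144% of all genes were called higher and 0.0288% lower. The difference was below 0 for 26 of 38 members, against 50.4% of all genes, with a median of -0.09. This direction turned with the GC and length trend removed, where 15 members lay below 0 and 23 above (median 0.0415), and with the block and the trend removed, where 18 lay below and 20 above (median 0.029). Without vector replicate 1 it was 19 below and 19 above. At an unadjusted p under 0.05 there was 1 member, TARDBP, against 1.97% of all genes lower. Its difference was -1.07 (SE 0.41, limma adjusted p = 1.00), made of -0.78 with TIF1γ and 0.29 with the TAF15 hairpin. SRSF6 had -0.65 (SE 0.39) and HNRNPA2B1 -0.48 (SE 0.45), neither of which passed the threshold.

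The control constructs were compared with each other, since each effect starts from its own control. SRSF1 was the 1 member called, 1.13 higher on the log2 scale in sh-NC than in vector libraries (SE 0.31, limma adjusted p = 0.034). Of all genes tested 3.78% were called higher and 7.21% lower. This call was lost without vector replicate 3 (log2 fold change 1.04, limma adjusted p = 0.073), and also with plain moderation or with no filter on low values. At an unadjusted p under 0.05, 11 members were higher and 0 lower, against 12.3% of all genes higher. The log2 fold change was above 0 for 36 of 38 members, against 50.7% of all genes, and the median was 0.55. HNRNPAB (-0.23) and HNRNPL (-0.11) were the exceptions. The sh-NC library lay above all 3 vector libraries for 34 members in deposited FPKM, against 45.4% of genes tested. After SRSF1 came HNRNPF at 0.93 (SE 0.28, limma adjusted p = 0.051), HNRNPR at 0.97 (SE 0.32, limma adjusted p = 0.064) and HNRNPU at 0.97 (SE 0.33, limma adjusted p = 0.072). This comparison shares its libraries with those above: a low vector or a high sh-NC value moves more than 1 of them.

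As the sh-NC and sh-TAF15 libraries lay on the same side for most members, the 3 sh libraries were also compared with the 5 vector and TIF1γ libraries, in a contrast chosen after seeing the data. Of the 38 genes 15 were called higher in the sh libraries and 0 lower, against 18.1% and 19.4% of all genes tested. At an unadjusted p under 0.05, 24 members were higher and 0 lower, against 23.7% of all genes higher. The log2 fold change was above 0 for 36 members, against 50.8% of all genes, with a median of 0.47 against 0.01 for all genes. All 3 sh libraries lay above all 5 others for 27 members in deposited FPKM (24.4% of genes tested) and for 18 in scaled FPKM (16.3%), and below them for none. Construct, line and any batch that goes with them cannot be told apart here.

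Of the A/B and D hnRNPs 3 of 7 were higher: HNRNPA2B1 by 0.97 (SE 0.21, limma adjusted p = 0.0037), HNRNPDL by 0.64 and HNRNPD by 0.58. Of the other hnRNPs 6 of 11 were higher. HNRNPU led with 0.96 (SE 0.21, limma adjusted p = 0.0032) and HNRNPR with 0.92 (SE 0.20, limma adjusted p = 0.0035), followed by HNRNPH1 (0.84), HNRNPH2 (0.80), HNRNPF (0.70) and HNRNPC (0.63). HNRNPH2, an X-linked paralogue of HNRNPH1, stood at 27.4, 22.8 and 19.1 FPKM in vector, 11.6 and 16.1 in TIF1γ, 43.8 in sh-NC, and 37.03 and 33.1 in sh-TAF15 libraries. HNRNPH1, HNRNPH2, HNRNPD, HNRNPDL and SRSF11 are named here because they passed this added contrast.

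Of the SR genes 2 of 10 were higher, SRSF1 by 1.00 (SE 0.20, limma adjusted p = 0.0019) and SRSF11 by 0.81 (SE 0.21, limma adjusted p = 0.0096). That share was near the 18.1% of all genes called higher. Of the paraspeckle genes 3 of 5 were higher, MATR3 by 0.73 (limma adjusted p = 0.011), PSPC1 by 0.72 (limma adjusted p = 0.013) and SFPQ by 0.63 (limma adjusted p = 0.026). NONO had 0.45 (limma adjusted p = 0.092) and RBM14 0.66 (limma adjusted p = 0.11), so neither passed. In deposited FPKM every sh library lay above every other library for both, and in scaled FPKM the NONO groups overlapped. Of the 5 remaining genes TARDBP alone was higher, by 0.57 (limma adjusted p = 0.036), again a share near that of all genes. The values nearest to 0 belonged to U2AF2 (0.01) and U2AF1 (0.03), and those below it to HNRNPAB (-0.17) and HNRNPL (-0.15). Outside the 38 genes EWSR1 had -0.02 and TAF15 -0.49 (limma adjusted p = 0.13).

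Of the 15 genes 6 were called with every library left out in turn: HNRNPA2B1, HNRNPC, HNRNPH2, HNRNPR, HNRNPU and SRSF1. In these fits between 10.9% and 19.4% of all genes were called higher. The share of all genes called in all of them was not computed, so this stability is not read as particular to the members. Without the sh-NC library 9 members were called, 8 of them among the 15, against 10.9% of all genes then called higher. HNRNPH2 and SRSF1 were called in every fit of this contrast that was run, and the share of all genes so called was not computed either. The number of calls moved with scaling. With deposited FPKM left unscaled 24 members were called higher, with the median of all genes at 0.17 in place of 0.01, and with 26.5% of all genes called higher and 14.6% lower. With each library divided by its sum of FPKM 29 members were called higher, against 23.1% of all genes higher and 13.7% lower, with the median of all genes at 0.19. The median of members less that of all genes was 0.45, 0.48 and 0.49 under these 3 scalings.

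**Figure D4:**
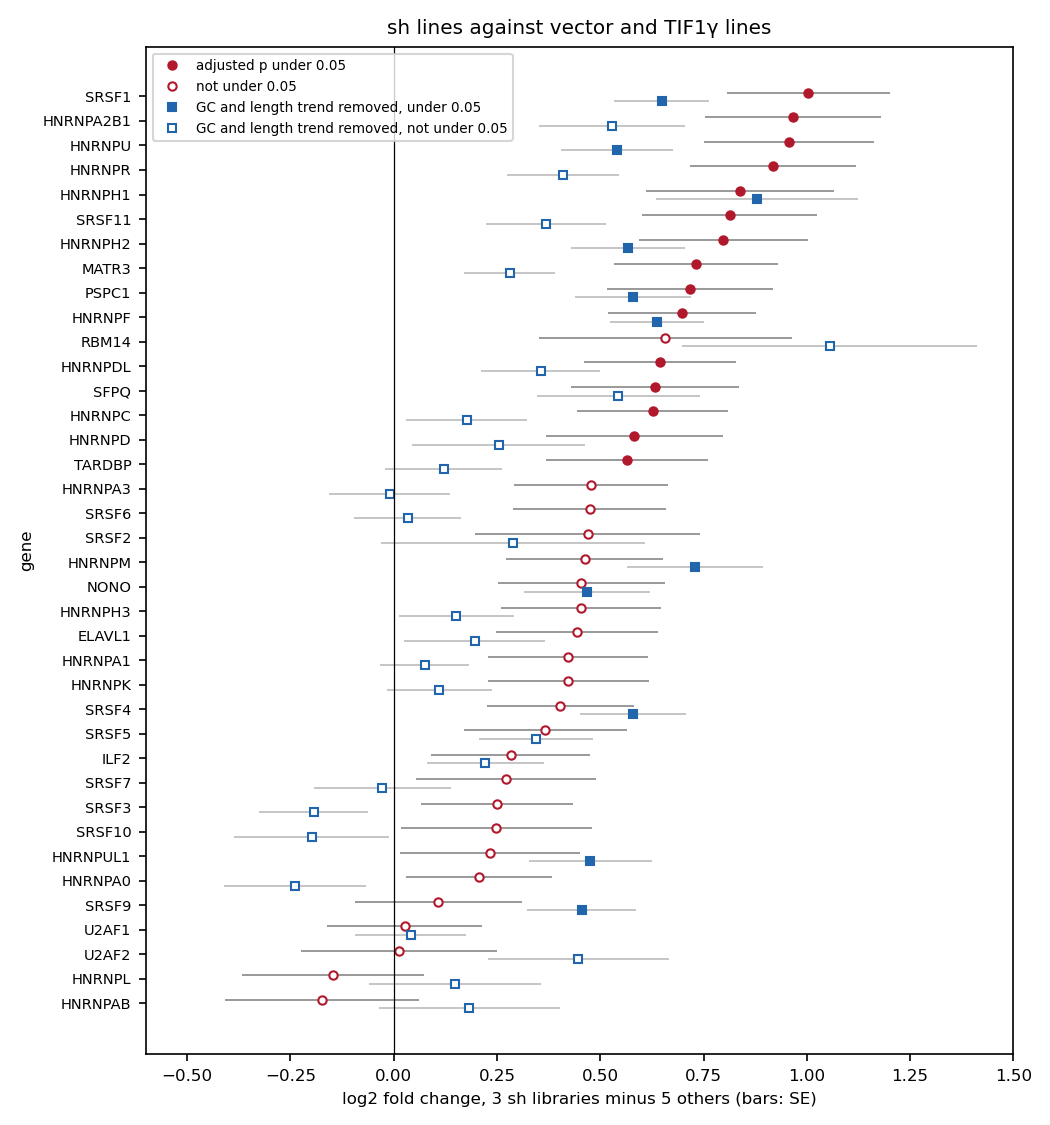
Log2 fold change of the 3 sh libraries against the 5 vector and TIF1γ libraries for each of the 38 genes (bars: SE), as fitted (red circles) and with the trend on transcript GC and length removed from each library (blue squares); filled symbols have an adjusted p under 0.05. SRSF1 lies at 1.00 and 0.65 and is filled in both, whereas HNRNPA3 moves from 0.48 to -0.01.

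Fold changes across these libraries followed the base composition of transcripts. Over 11720 protein-coding genes the Spearman rho between transcript GC percent and log2 fold change was 0.79 for TIF1γ against vector and 0.43 for sh-TAF15 against sh-NC. It was -0.48 for sh-NC against vector and -0.55 for the sh libraries against the others. The 38 genes had a median transcript GC of 43.8%, from 35.3% in HNRNPR to 61.1% in U2AF2, against a median of 49.4% in protein-coding genes. Across the 38 genes the same rho was 0.66, 0.48, -0.31 and -0.39, as a description over genes that share libraries. The 20 members under 45% GC had a median log2 fold change of -0.56 with TIF1γ and the 18 at or above it -0.02. Over protein-coding genes these medians were -0.47 and 0.24. On either side of 45% GC the median of members was the lower with TIF1γ. A single cut does not match members to other genes for GC, so nothing beyond base composition is read from this. The part of base composition in these values was not tested beyond the removal of its trend.

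**Figure D5:**
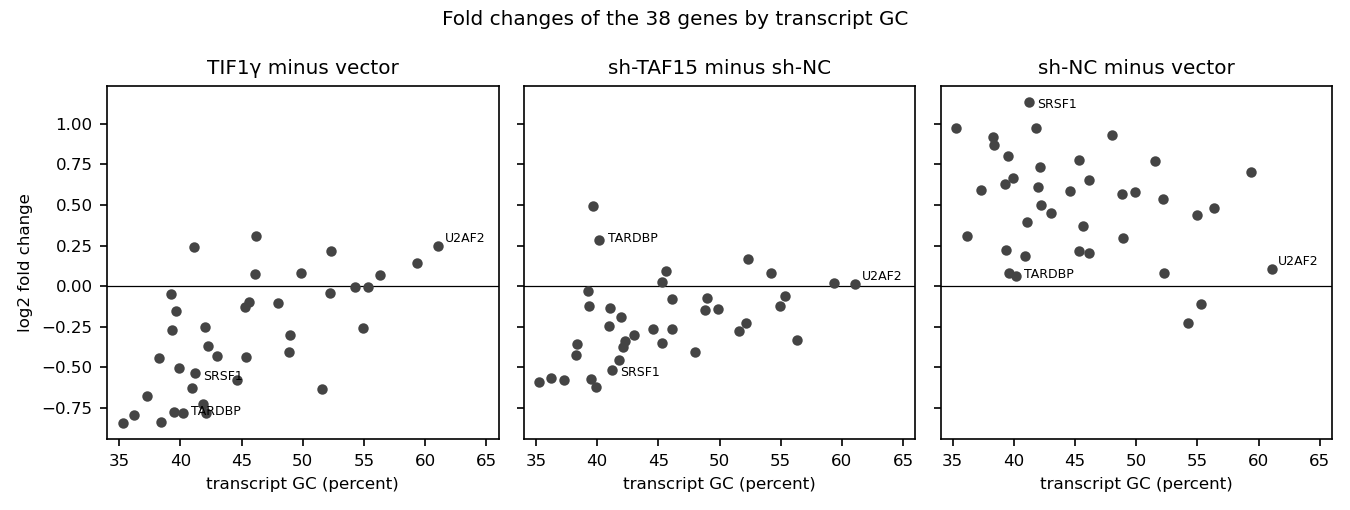
Log2 fold change of each of the 38 genes (points) against transcript GC percent in 3 comparisons; vertical axes are the same. Under TIF1γ the points climb from about HNRNPR at 35.3% GC and -0.84 to U2AF2 at 61.1% GC and 0.25, and in sh-NC against vector SRSF1 is the highest point at 1.13.

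With the trend on GC and length removed from each library, the median of members was -0.15 with TIF1γ, -0.15 with the TAF15 hairpin and 0.36 for sh-NC against vector. For the sh libraries against the others it was 0.32, with 33 of 38 members above 0. There 11 members were called higher and 0 lower, against 16.6% of genes higher. Of these 11, 6 were also among the 15: HNRNPF, HNRNPH1, HNRNPH2, HNRNPU, PSPC1 and SRSF1. The other 5 were HNRNPM, HNRNPUL1, NONO, SRSF4 and SRSF9, all with a transcript GC above the median of the members. HNRNPC went from 0.63 to 0.18 and TARDBP from 0.57 to 0.12, neither of them called after removal. HNRNPA2B1 (0.53, limma adjusted p = 0.053) and HNRNPR (0.41, limma adjusted p = 0.053) lay just outside the threshold. SRSF1 held 0.65 (SE 0.12, limma adjusted p = 0.0047).

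Promoters of the members were read from RefSeq, 250 bases before to 50 after the annotated start, on GRCh38.p14, and 34 of the 38 had an entry. HNRNPA1, SRSF2, SFPQ and ELAVL1 had none. Each window was searched on both strands for a CCAAT box (letters as named), the TATA box (TATAAA), the GC box (GGGCGG), the ETS core (CCGGAAG), an NRF1 core (GCGCATGCG), a CRE (TGACGTCA), a YY1 core (AAGATGGCG) and a palindrome bound by ZBTB33 (CTCGCGAG). Matches of different motifs may overlap. SRSF1 and HNRNPH2 are printed because they were called in every fit of the sh libraries against the others, and U2AF2 because its fold change there lay nearest to 0. Capitals mark the motif matches.
SRSF1: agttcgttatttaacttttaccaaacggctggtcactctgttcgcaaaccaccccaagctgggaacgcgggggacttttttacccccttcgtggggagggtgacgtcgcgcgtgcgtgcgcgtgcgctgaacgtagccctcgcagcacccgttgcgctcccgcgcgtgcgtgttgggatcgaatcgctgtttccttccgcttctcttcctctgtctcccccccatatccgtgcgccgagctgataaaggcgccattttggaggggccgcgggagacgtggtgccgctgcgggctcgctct
HNRNPH2: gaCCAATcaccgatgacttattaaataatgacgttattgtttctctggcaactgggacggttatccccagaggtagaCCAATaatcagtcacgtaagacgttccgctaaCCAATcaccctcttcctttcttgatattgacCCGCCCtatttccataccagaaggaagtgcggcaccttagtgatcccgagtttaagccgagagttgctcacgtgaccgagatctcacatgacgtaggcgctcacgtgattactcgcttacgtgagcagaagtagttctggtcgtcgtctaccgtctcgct
U2AF2: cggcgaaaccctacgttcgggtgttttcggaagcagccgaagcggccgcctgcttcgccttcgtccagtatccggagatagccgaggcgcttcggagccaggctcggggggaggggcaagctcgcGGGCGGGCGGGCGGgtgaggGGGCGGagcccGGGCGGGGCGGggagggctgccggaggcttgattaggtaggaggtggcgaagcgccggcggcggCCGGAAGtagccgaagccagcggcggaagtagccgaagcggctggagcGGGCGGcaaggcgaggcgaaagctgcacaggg
The SRSF1 window lies on the minus strand at chr17:58007197-58007496 and held none of these motifs. The HNRNPH2 window, on the plus strand at chrX:101407972-101408271, held 3 CCAAT boxes and 1 GC box, at 48.7% GC. The U2AF2 window, on the plus strand at chr19:55654785-55655084, held 7 GC boxes, some of them overlapping, and 1 ETS core, at 72.3% GC.

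GC boxes were found in 64.7% of the member windows (22 of 34) and in 45% of all 35116 windows of the same length. CCAAT boxes stood in 44.1% against 34.6%, TATA boxes in 14.7% against 11.5%, and ETS cores in 14.7% against 10.3%. The NRF1 core stood in 8.82% against 1.92%, in PSPC1, SRSF10 and U2AF1. The ZBTB33 palindrome stood in HNRNPK, HNRNPUL1, SRSF4 and SRSF10 (11.8% against 1.02%). The CRE and the YY1 core stood in no member window, against 1.85% and 1.75% of all. Member windows had a median GC of 63.5% and all windows 58.7%, and the shares were not adjusted for that. A single window per gene was kept for the members only, and the set of all windows was not limited to expressed genes. PSPC1, at chr13:19782896-19783195 on the minus strand, is printed for its overlapping NRF1 cores, and HNRNPK, at chr9:83980566-83980865 on the minus strand, for its ZBTB33 palindrome.
PSPC1: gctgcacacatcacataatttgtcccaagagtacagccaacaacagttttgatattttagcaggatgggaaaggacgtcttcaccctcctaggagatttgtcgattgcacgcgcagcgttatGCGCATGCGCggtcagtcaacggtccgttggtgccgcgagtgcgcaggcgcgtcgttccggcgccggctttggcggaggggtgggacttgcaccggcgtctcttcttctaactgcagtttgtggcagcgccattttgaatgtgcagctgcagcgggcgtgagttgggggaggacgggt
HNRNPK: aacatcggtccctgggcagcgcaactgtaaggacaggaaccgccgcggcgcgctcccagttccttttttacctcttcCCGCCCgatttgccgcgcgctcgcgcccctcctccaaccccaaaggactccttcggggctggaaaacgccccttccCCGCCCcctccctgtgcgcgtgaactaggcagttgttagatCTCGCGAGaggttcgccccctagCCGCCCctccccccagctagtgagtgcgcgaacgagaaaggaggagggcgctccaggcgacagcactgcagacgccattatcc
PSPC1 was called in the sh libraries against the others and HNRNPK was not (0.42, limma adjusted p = 0.10).

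The wider pathway was read from lists of hnRNP-like and SR-related proteins, SR protein kinases, core spliceosome, decay factors, further paraspeckle components and related genes, TAF15 among them. They hold 130 genes beyond the members, of which 122 were tested. With TIF1γ 0 of these passed the limma threshold, and 25 were lower and 3 higher at an unadjusted p under 0.05 (20.5% and 2.46%, against 11.4% and 8.53% of all genes), with a median of -0.21. With the TAF15 hairpin 0 passed, and 2 were lower and 1 higher at an unadjusted p under 0.05 (1.64% and 0.82%, against 2.06% and 3.57%), with a median of -0.16. Of these 2 lower genes 1 was TAF15, the target of the hairpin. Between sh-NC and vector 5 were called higher and 1 lower (4.1% and 0.82%, against 3.78% and 7.21%), with a median of 0.33. Between the sh libraries and the others 32 were called higher and 4 lower (26.2% and 3.28%, against 18.1% and 19.4%), with a median of 0.34. Among core spliceosome genes, which form the splicing machinery itself, 8 of 40 were higher and 3 lower in the sh libraries, with a median of 0.16 and a share of higher genes near that of all genes. Of the SR-related genes 5 of 13 tested were higher and 0 lower (median 0.56).

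Single genes of these lists had larger values with TIF1γ than any member, without passing the threshold. All values of these lists, here and above, come from the fit with the trend on transcript GC and length left in. They were not computed with that trend removed, so its part in them was not tested. FAM98A, a paraspeckle component, had -1.16 (SE 0.24, limma adjusted p = 0.18), with 6.81 and 5.96 FPKM in TIF1γ against 16.7, 15.2 and 12.4 in vector libraries. BCLAF1, an SR-related protein, had -1.26 (SE 0.27, limma adjusted p = 0.18). DHX9, an RNA helicase, had -1.14 (SE 0.28, limma adjusted p = 0.20), and SYNCRIP, a close relative of HNRNPR, -1.05 (SE 0.24, limma adjusted p = 0.19). With the TAF15 hairpin the lowest p in 3 of the lists belonged to RBM12 (-0.77), SRPK1 (-0.73), a kinase of SR proteins, and LSM8 (0.75), and none of them passed (limma adjusted p = 0.86, 0.89 and 0.86).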

How the data were processed

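Poly(A)-selected or ribosomal RNA-depleted RNA was sequenced, per the labels' protocols. The deposited values are FPKM on a linear scale, which program made them is not given in the sources used here, and cutadapt 1.9.1, HISAT2 2.0.1, HTSeq 0.6.1 and GRCh37 are named per the submitters' processing notes. Identifiers were named from GENCODE 29 (52324 of 57879 matched). TAF15 and a second SRSF10 identifier were matched by hand to identifiers absent from that release.

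From the deposited FPKM, 19 genes at 0 beside 100 FPKM or more were set aside, and genes at 1 FPKM or more in at least 2 libraries were kept (13907). Scaling factors came from log2 ratios to the mean library, after trimming 30% of ratios and 5% of abundances. log2(FPKM + 1) was fitted in limma 3.58.1 (R 4.3.3, lmFit and eBayes with trend and robust), 4 groups in 1 fit, with 4 residual and 9.57 prior degrees of freedom. P-values were adjusted by Benjamini-Hochberg over all genes tested. The fit was tested on simulated data. A fold change on this scale understates the change of low genes. Depth in reads is unknown, so no counting interval is given.

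The members, the further lists and the rule for named genes were chosen with earlier results of these data known. That rule gives values in every library for called members, the 3 lowest p-values in each contrast, the 3 highest and 3 lowest means, the paraspeckle genes, TAF15, EWSR1 and TRIM33. Some genes under that rule are not reported here. Alternatives changed the pseudocount, filter, scaling, moderation, libraries in the fit, GC and length trend, and replicate block. The contrast of sh against other libraries was added after seeing the data.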

Additional observations from a re-analysis of the deposited data

How the results depend on the processing

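No member was called for TIF1γ, for sh-TAF15 or for the difference of effects under any alternative run. For sh-NC against vector, where 1 member was called (3.78% of all genes higher), 2 were called with a pseudocount of 0.5 or 0.1 or with the GC and length trend removed, 4 unscaled or scaled to the sum of FPKM, and 0 with no filter, with plain moderation, with the replicate block, and with the block and the trend removed. The share of all genes called higher ran from 1.46% (block and trend removed) to 6.46% (unscaled) over these. Without vector replicate 3 or without TIF1γ replicate 2 the trend removal gave 2 each (added after seeing the data). For the sh libraries against the others (15 called), 24 were called unscaled, 29 scaled to the sum, 9 with the replicate block (13.9% of all genes higher), and 6 with the block and the trend removed (9.86%).

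The median member moved with scaling to the sum of FPKM to -0.50 (TIF1γ), 0.75 (sh-NC against vector) and 0.68 (sh libraries), and unscaled to 0.72 and 0.65 for the last pair. With the trend removed it was 0.36 for sh-NC against vector, or 0.30 without vector replicate 3 and 0.36 without TIF1γ replicate 2, and 0.29 for the sh libraries without vector replicate 3. With the block and the trend removed it was -0.092 (TIF1γ), -0.079 (sh-TAF15) and 0.36 (sh-NC against vector). Scaled to the sum, the median member level was 69.8 in TIF1γ and 178 in sh-NC libraries, on that rescaled scale and not in FPKM. In deposited FPKM it was 79.4 in TIF1γ replicate 2, 78.3 in TIF1γ replicate 3 and 163 in sh-NC. The cause of these moves was not tested.

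Leaving out 1 library at a time gave 0 to 0 calls for TIF1γ, sh-TAF15 and the difference, 0 to 2 for sh-NC against vector and 9 to 17 for the sh libraries. For the sh libraries between 10.9% and 19.4% of all genes were called higher in these fits. Medians ran from -0.42 to -0.24 (TIF1γ), -0.24 to -0.18 (sh-TAF15), 0.45 to 0.59 (sh-NC against vector), -0.24 to -0.02 (difference) and 0.42 to 0.58 (sh libraries). Among single genes, HNRNPA3 in the sh libraries reversed to -0.0092 with the trend removed, -0.047 with the block and the trend removed, and -0.041 with the trend removed and no vector replicate 3, where SRSF6 reversed to -0.039.

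Replicate numbers were checked for pairing. Deviations of same-numbered libraries correlated at 0.17 and 0.12 between vector and TIF1γ, -0.37 and -0.24 between vector and sh-TAF15, and -0.24 between TIF1γ and sh-TAF15. The sign thus differed between pairs of groups. In a group of 2 libraries the deviations are mirror images of each other, so the check holds little information and cannot exclude pairing. Leaving out the sh-NC library leaves no value for 3 of the comparisons, and the difference of effects was not run on fewer groups. With 1 to 3 libraries a group and unknown depth, the comparisons of TIF1γ with vector and above all of sh-TAF15 with sh-NC could miss large changes as well as small ones, so a missed threshold does not show that a gene kept its level.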

Other observations

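Ratios of paralogues within a library do not depend on scaling. HNRNPA2B1 stood to HNRNPA1 at 0.667 to 0.705 in the sh libraries and at 0.334 to 0.630 in the vector and TIF1γ libraries, the 1 ratio of 12 examined whose ranges did not overlap. SRSF1 to SRSF9 ran from 0.473 to 0.933 in the sh libraries and from 0.198 to 0.514 in the others. HNRNPU to HNRNPUL1 ran from 0.758 to 0.882 against 0.265 to 0.800, the low end being TIF1γ replicate 2. SFPQ to NONO ran from 0.456 to 0.667 in the sh libraries, within its range of 0.343 to 0.771 in the others. PSPC1 to NONO likewise ran from 0.0971 to 0.128, within 0.0624 to 0.147. The ratios were chosen as pairs of related genes and are given with no test. The trend on transcript GC and length was left in them. Transcript GC was 38.4% in HNRNPA2B1 and 43.0% in HNRNPA1, 41.2% in SRSF1 and 52.3% in SRSF9, and 41.8% in HNRNPU and 56.3% in HNRNPUL1. The part of that trend in the ratios was not tested.

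Some member genes overlap other genes in GENCODE 29. SRSF1 shares 1890 exonic bases with AC015813.2 on the same strand, a gene at a mean of 0.9 FPKM. Exons of SRSF9 overlap GATC by 1729 bases on the opposite strand and those of SRSF2 overlap MFSD11 by 1106 bases, with GATC at a mean of 30.9 FPKM and MFSD11 at 12.2 FPKM. HNRNPA2B1 shares 368 bases with CBX3 (84.7 FPKM) on the opposite strand, and RBM14 shares 432 bases with the read-through gene RBM14-RBM4 (7.32 FPKM) on the same strand. HNRNPC has 9 named pseudogenes, which held 1.54% of the FPKM of gene and pseudogenes summed. How the counting treated such reads is not given in the sources used here, so these levels are uncertain.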
